A study of Mus musculus with 9 samples.

Results

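ABC transporter genes were read across epithelial cells of mouse small intestine and kidney. The members are all genes whose array name starts with Abc, a letter from a to g and a number, 50 of the 28478 genes on the array. Cftr, Tap1 and Tap2, which belong to the same superfamily under other names, are not members. Of the 50 members, 40 were tested, because some group showed them well above background on each of its 3 arrays. Well above background is the scanner software's own test of a spot against its background. The other 10 members were not tested, and 6 of them were not well above background on any of the 9 arrays.

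The study sorted epithelial cells of C57BL/6 mice into 3 groups of 3 arrays. MHCIIhi cells came from small intestine through the gate Epcamhi MHChi CD45- Fluorogold-, and MHCIIlo cells from the same tissue through the gate Epcamint MHCint CD45- Fluorogold-. The labels also call the MHCIIlo cells MHCIIint. Kidney cells passed the gate Epcam+ CD45- Fluorogold-, so all 3 groups were selected as Epcam-bearing and CD45-negative. The labels name no transgene or treatment. Each intestinal array holds RNA of 3 pooled mice and each kidney array that of 4 pooled mice. The arrays were read with 1 colour, Cy3.

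ABC transporters are membrane proteins that couple ATP hydrolysis to the movement of a substrate across a membrane. Some carry the whole pump in 1 chain, and others, such as those of the G and D subfamilies, work as dimers. In the gut they return plant sterols and drugs to the lumen and export cholesterol to lipoproteins, and in the kidney tubule they secrete conjugates and nucleotides. The E and F subfamilies have the ATP-binding domains without membrane spans and act in translation.

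A level below is log2 of the processed signal minus the 75th percentile of its array, so that 0 is that percentile. A difference is a difference of group means of such levels with its standard error (SE) from 1 limma fit over 19994 genes and all 9 arrays. A gene is called where the Benjamini-Hochberg adjusted p was below 0.05 and the difference at least 1 in size. Each probe is compared only with itself. The 75th percentile of the signal itself lay from 213 to 371 for MHCIIhi, from 100.6 to 185 for MHCIIlo and from 599 to 770 for kidney. Between 51.0% and 73.2% of spots were well above background, with the lowest share on an MHCIIlo array. MHCIIhi 1 and 2 shared a slide and scan, MHCIIhi 3 shared another with all 3 MHCIIlo arrays, and the 3 kidney arrays filled the third. Kidney and slide therefore cannot be told apart. The comparisons of kidney with MHCIIhi and with MHCIIlo share the kidney arrays, and each shares an intestinal group with the comparison of MHCIIhi and MHCIIlo, so the 3 are not independent.

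The sorted cells carried the epithelial genes of their gates. Epcam, Cdh1, Krt8, Krt18 and Cldn7 were well above background on every array, and of 5 intestinal genes Cdx1, Cdx2 and Cdh17 were so on no kidney array, while Vil1 and Lgals4 were so on all 3, at mean levels of 1.08 and 2.14. All 12 kidney tubule genes read were well above background on the 3 kidney arrays, and 5 of them were so on all 3 MHCIIhi arrays and 4 on all 3 MHCIIlo arrays. Of the 12, 11 were higher and 1 lower in kidney than in MHCIIhi, and 9 were higher and 1 lower than in MHCIIlo. The lower gene was Cubn, with a mean of 0.35 for kidney (SD 1.94, n = 3) beside 4.04 and 5.09. The kidney arrays also held 7 of 7 endothelial genes, whose summed level lay between 5.05 and 6.33 there, against -3.38 to -1.54 for MHCIIhi and -1.70 to -1.53 for MHCIIlo. Pecam1, Cdh5, Kdr, Emcn and Tek were not well above background on any intestinal array, while Tie1 was so on 3 MHCIIhi and 2 MHCIIlo arrays and Flt1 on 2 and 3. Of 10 enterocyte genes 9 were lower in MHCIIhi than in MHCIIlo, and of 10 genes of crypt and dividing cells 9 were higher. In pooled cells such as these, fewer cells of a type and less RNA per cell cannot be told apart.

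Some members are neighbours. In the RefSeq gene order of assembly GRCm38.p6 no other protein-coding gene lies between Abcg5 and Abcg8 on chromosome 17, between Abca17 and Abca3 on chromosome 17, or among Abcb1a, Abcb1b and Abcb4 on chromosome 5. The same holds for Abca8b, Abca8a, Abca9, Abca6 and Abca5 on chromosome 11 and for Abca14, Abca15 and Abca16 on chromosome 7. Abcg5 and Abcg8 encode the subunits of 1 sterol pump and run in opposite directions. Their starts lie 110 bases apart, by the Abcg8 start nearer to Abcg5. The RefSeq promoter windows run from 250 bases before a start to 50 after it, and 38 of the 50 members have at least 1, 45 windows in all. Abcg8 also has a RefSeq start at chr17:84676302, whose window is not shown. The window of the Abcg8 start nearer to Abcg5 lies on the plus strand at chr17:84682871-84683170 and holds that start and the Abcg5 start. It is shown because Abcg5 had the largest drop of all members in kidney and Abcg8 is its partner, and its capitals mark, on either strand, matches of the GATA factor motif AGATAA or of the TATA box motif written TATAAA.

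Abcg8: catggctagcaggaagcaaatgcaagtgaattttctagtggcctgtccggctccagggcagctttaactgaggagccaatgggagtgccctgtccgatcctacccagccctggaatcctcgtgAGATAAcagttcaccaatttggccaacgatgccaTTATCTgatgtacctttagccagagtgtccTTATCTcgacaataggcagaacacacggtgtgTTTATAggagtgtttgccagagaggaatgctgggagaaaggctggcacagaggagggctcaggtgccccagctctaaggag

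The 3 AGATAA matches begin 127, 93 and 63 bases before the Abcg8 start, and the Abcg5 start lies 110 bases before it. At least 3 such matches occurred in 35 of all 32851 windows, which is 0.107%, and the only member windows among them were those of Abcg5 and Abcg8. These windows overlap by 209 bases and share their matches. At least 1 AGATAA match stood in 6 of the 45 member windows (13.3%) and in 11.2% of all windows. TATAAA stood in 15.6% of member windows and 13.6% of all windows. CAAAGTCC, a core of the HNF4 motif, stood in 2.22% and 1.42%, TCAAGGTC, a core of the LRH-1 motif, in 2.22% and 1.05%, and the HNF1 motif core GTTAAT in 0 of 45 and 7.1% of all windows. The shares of AGATAA and TATAAA were close in members and all windows. Those of CAAAGTCC and TCAAGGTC rest on 1 member window each, too few to compare. A match is a description of letters, not of binding.

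The 3 neighbours of chromosome 5 are shown beside it, because they too were far lower in kidney. Their plus-strand windows lie at chr5:8566841-8567140 for Abcb1a, chr5:8797897-8798196 for Abcb1b and chr5:8893471-8893770 for Abcb4. None of the 5 motifs matched in them, so they carry no capitals.
Abcb1a: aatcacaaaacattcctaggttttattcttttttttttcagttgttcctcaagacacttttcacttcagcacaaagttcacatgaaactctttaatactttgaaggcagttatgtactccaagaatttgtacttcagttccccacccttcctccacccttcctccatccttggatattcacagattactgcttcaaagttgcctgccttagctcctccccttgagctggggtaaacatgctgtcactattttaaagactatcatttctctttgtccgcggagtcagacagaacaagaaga
Abcb1b: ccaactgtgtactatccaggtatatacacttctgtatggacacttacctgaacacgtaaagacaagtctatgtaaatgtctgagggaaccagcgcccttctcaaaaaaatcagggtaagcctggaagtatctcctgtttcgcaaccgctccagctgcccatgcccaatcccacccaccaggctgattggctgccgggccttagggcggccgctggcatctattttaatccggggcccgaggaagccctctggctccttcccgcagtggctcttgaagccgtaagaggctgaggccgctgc
Abcb4: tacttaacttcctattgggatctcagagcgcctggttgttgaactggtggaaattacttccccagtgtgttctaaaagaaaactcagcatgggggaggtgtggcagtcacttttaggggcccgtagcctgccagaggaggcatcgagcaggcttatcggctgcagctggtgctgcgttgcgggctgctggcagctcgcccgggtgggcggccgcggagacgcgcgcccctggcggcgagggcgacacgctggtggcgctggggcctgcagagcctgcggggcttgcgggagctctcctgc
The share of G and C was 40.3% in the Abcb1a window, 55.0% in that of Abcb1b, 64.0% in that of Abcb4 and 52.3% in that of Abcg8.

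Across the 50 members, detection was most frequent in kidney, as it was over all spots of the arrays. Of all spots, 71.2% to 73.2% were well above background on kidney arrays, 60.9% to 64.7% on MHCIIhi and 51.0% to 57.3% on MHCIIlo arrays. On all 3 arrays of the group, 35 members were well above background in kidney, 32 in MHCIIhi and 29 in MHCIIlo, and 23 were so on all 9 arrays. On no array of the group were 11, 15 and 14 members well above background in that order. The lowest level that counted as well above background was itself lowest in kidney, at -6.11 to -5.80, against -5.37 to -4.57 in MHCIIhi and -4.35 to -3.43 in MHCIIlo. A faint probe could thus be detected in kidney at a level at which it could not be detected in MHCIIlo.

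**Figure D1:**
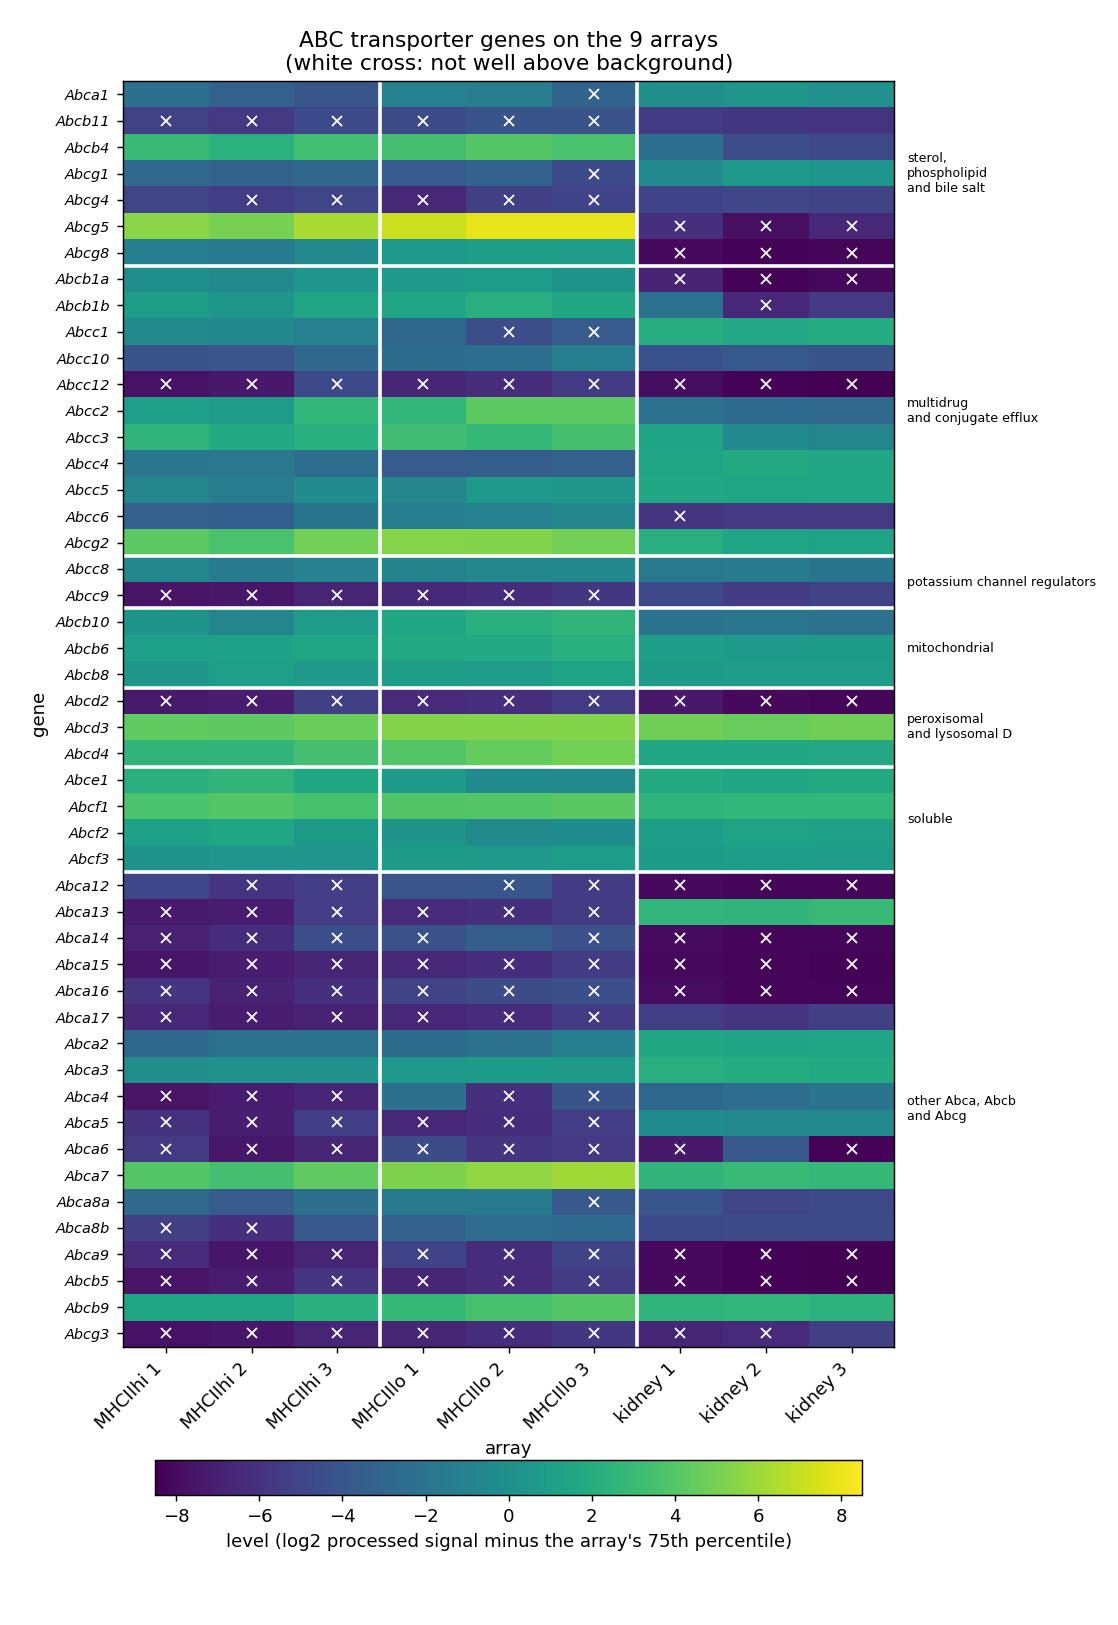
Level of 48 of the ABC transporter genes (rows, grouped by role) on each of the 9 arrays (columns), with 0 at the 75th percentile of the array (log2). A white cross marks a value not well above background, and Abcg5, Abcg8 and Abcb1a carry crosses on the kidney arrays alone while Abca13 and Abca5 carry them on all 6 intestinal arrays.

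Between kidney and intestine the members split in both directions. Of the 40 tested, 26 were called against MHCIIhi, 12 higher and 14 lower in kidney, where 48.8% of all genes tested were called (26.1% higher and 22.6% lower). Against MHCIIlo 31 were called, 12 higher and 19 lower, where 58% of all genes were called (30.5% higher and 27.4% lower). The split over all genes turned with the scaling. Against MHCIIlo 6106 genes were higher and 5487 lower as scaled here, 3027 and 7912 with normexp background correction, and 5202 and 6585 in the authors' value table. Against MHCIIhi the pairs were 5228 and 4525, 2903 and 4242, and 4533 and 5693. The members called against MHCIIlo were 10 higher and 21 lower with either, and against MHCIIhi 9 and 12 with normexp and 12 and 15 in the value table. The members' shares were 65% and 77.5%. Groups did not overlap for 30 members against MHCIIhi, beside 72.4% of all genes, and for 34 against MHCIIlo, beside 78.3%. The median size of the difference over the members, whatever its sign, was 2.06 against MHCIIhi and 2.002 against MHCIIlo, beside 1.02 and 1.29 over all genes tested. The members were kept through the group in which they were detected, so these counts describe them and support nothing further.

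For a member not well above background on any array of a group, a fold is given as a bound. It sets the brighter group's mean against the mean, over the dim group's arrays, of the higher of the probe's own level and the lowest level well above background on that array. Each bound holds for the probe read and the processing used here, and other probes or processing can give smaller differences. Of the calls, 2 against MHCIIhi (Abca17 and Abcc9) and 2 against MHCIIlo (Abcb11 and Abcc9) had no fold by this rule, because the level that could be detected in the intestinal group was above the level in kidney. Without these, 10 members were higher and 14 lower in kidney than in MHCIIhi, and 11 were higher and 18 lower than in MHCIIlo.

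**Figure D2:**
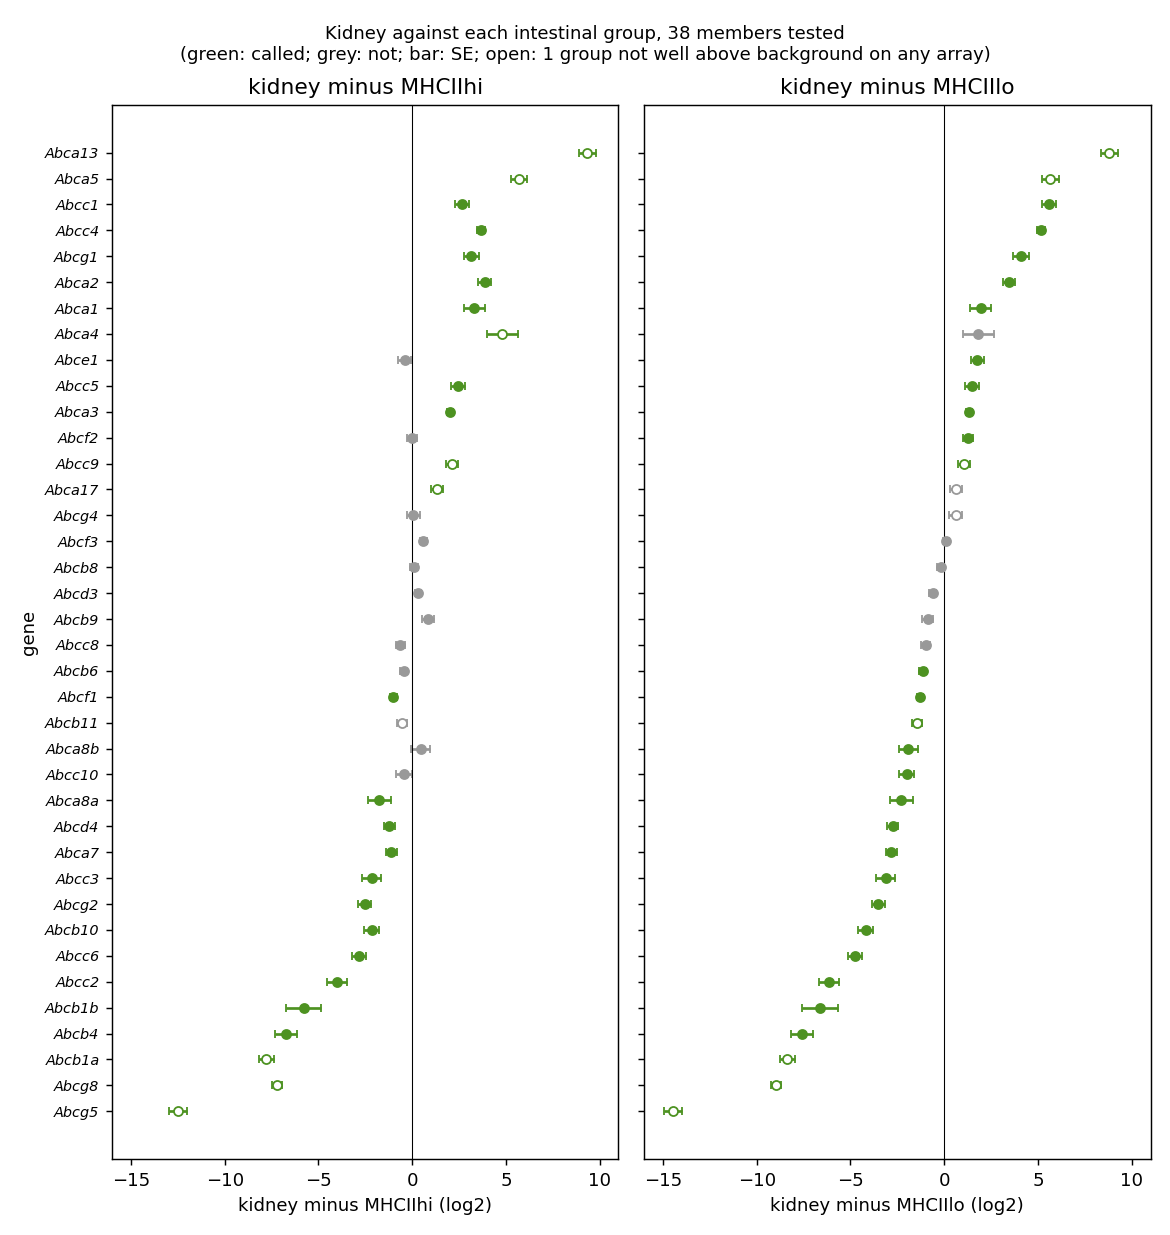
Difference of levels (log2, horizontal axis) between kidney and MHCIIhi (left) and between kidney and MHCIIlo (right) for 38 of the members tested, with bars of 1 SE. Called members are green, and open circles mark members that 1 of the groups did not show well above background on any array; Abcg5 lies at the low end at -12.49 and -14.48 and Abca13 at the high end at 9.35 and 8.80.

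Among the transporters of sterols, phospholipids and bile salts, the sterol pump subunits and the phosphatidylcholine floppase stood high in intestine, and the cholesterol exporters Abca1 and Abcg1 stood high in kidney. Abcg5, whose probe lies at chr17:84566590-84566649 on mm8, read 5.58, 4.99 and 6.36 for MHCIIhi, 7.15, 7.89 and 7.86 for MHCIIlo and -6.14, -7.79 and -6.62 for kidney. No kidney array was well above background, and every MHCIIlo array was above every MHCIIhi array. By its 1 probe and as scaled here, Abcg5 was at least 3154-fold lower in kidney than in MHCIIhi and at least 12530-fold lower than in MHCIIlo. The adjusted p was 1.06e-07 and 4.37e-08 in the limma fit. In log2 these bounds are 11.62 and 13.61. Under the alternatives run, the fitted differences lay from -12.85 to -8.69 and from -14.84 to -10.44, so the smallest were short of the bounds. Leaving out each array in turn left bounds of 2462 to 3952 and of 11480 to 14820.

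Abcg8, its partner, was read by a probe at chr17:84607731-84607790 on mm8. The levels were -1.18, -1.43 and -0.38 for MHCIIhi, 0.54, 0.93 and 0.86 for MHCIIlo and -8.07, -8.35 and -8.18 for kidney, again not well above background on a kidney array. The groups did not overlap and had the order of Abcg5. By this probe Abcg8 was at least 31.6-fold lower in kidney than in MHCIIhi (adjusted p = 9.87e-08) and at least 108-fold lower than in MHCIIlo (adjusted p = 2.99e-08). Its other, dimmer probe was well above background on 2 of 3 kidney arrays and differed by -3.52 and -5.22, in the same direction but less than those bounds, so the bounds hold for the first probe and not for the gene. Both pump subunits were thus called in all 3 comparisons, lower in MHCIIhi than in MHCIIlo and lowest in kidney.

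Abcb4, which moves phosphatidylcholine to the outer leaflet of the membrane and into bile, has its probe at chr5:8965114-8965173 on mm8. It read 2.96, 2.34 and 3.34 for MHCIIhi, 3.51, 4.04 and 3.64 for MHCIIlo and -2.28, -4.47 and -4.77 for kidney, well above background on all 9 arrays. Kidney was lower by 6.72 ± 0.59 (SE; adjusted p = 1.31e-05) than MHCIIhi and lower by 7.57 ± 0.59 (adjusted p = 5.24e-06) than MHCIIlo, folds of 106 and 190. Kidney 1 stood above the other kidney arrays, and without it the differences were -7.50 and -8.35. The second Abcb4 probe was not well above background on any array, so the result rests on 1 probe.

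Abca1, the exporter that loads cholesterol onto apolipoprotein A-I, read -2.32, -3.25 and -3.93 for MHCIIhi, -1.05, -1.27 and -3.07 for MHCIIlo and 0.00090, 0.35 and 0.083 for kidney. All kidney arrays lay above all intestinal ones, and the intestinal groups overlapped. Kidney was higher by 3.31 ± 0.56 than MHCIIhi (adjusted p = 7.35e-04) and by 1.95 ± 0.56 than MHCIIlo (adjusted p = 0.0113), and by 1.31 than MHCIIlo without MHCIIlo 3. The call against MHCIIlo was lost with normexp background correction (0.95) and with slide as a random block (adjusted p = 0.0592).

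Abcg1, which passes cholesterol to high density lipoprotein, read -2.66, -3.11 and -2.90 for MHCIIhi, -3.65, -3.14 and -4.71 for MHCIIlo and -0.34, 0.70 and 0.41 for kidney. Kidney again lay above every intestinal array, by 3.15 ± 0.41 over MHCIIhi (adjusted p = 1.54e-04) and 4.09 ± 0.41 over MHCIIlo (adjusted p = 2.40e-05). Endothelial genes moved with Abca1 and Abcg1 across these groups, 7 of 7 higher in kidney in both comparisons, and their part in the result was not tested.

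The remaining members of this group were faint. Abcb11, the bile salt export pump, read -5.19, -5.69 and -4.70 for MHCIIhi, -4.59, -4.07 and -4.14 for MHCIIlo and -5.51, -5.72 and -5.91 for kidney, and was well above background on the kidney arrays alone. Its call as lower in kidney than in MHCIIlo (-1.45 ± 0.27, adjusted p = 1.17e-03) is thus no difference between measured levels. Abcg4, a sterol transporter known from brain, averaged -5.08 ± 0.24 (SD, n = 3) for MHCIIhi, -5.62 ± 0.80 for MHCIIlo and -5.01 ± 0.10 for kidney and was called in none of the comparisons.

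The genes that act with these transporters were read from a list of 26 regulators and partners. Against MHCIIhi 4 were higher and 15 lower in kidney, and against MHCIIlo 3 and 17. Npc1l1, the cholesterol uptake protein of enterocytes, averaged 4.87 ± 0.79 for MHCIIhi, 6.48 ± 0.28 for MHCIIlo and -4.89 ± 0.14 for kidney. Apoa1, the acceptor of Abca1's cholesterol, averaged 6.64 ± 0.76, 8.41 ± 0.45 and -7.50 ± 0.85 and was not well above background on any kidney array. Nr1h3, which encodes the oxysterol receptor LXR alpha, averaged 1.73 ± 0.40, 3.48 ± 0.24 and -0.054 ± 0.74 (SD, n = 3 each). Apoe went the other way and was called higher in kidney in both comparisons, with means of 0.44 ± 0.22, 0.26 ± 0.048 and 3.62 ± 0.17. Nr1h2 averaged 1.99 ± 0.069, 2.95 ± 0.10 and 2.04 ± 0.092 and was called in neither kidney comparison.

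**Figure D3:**
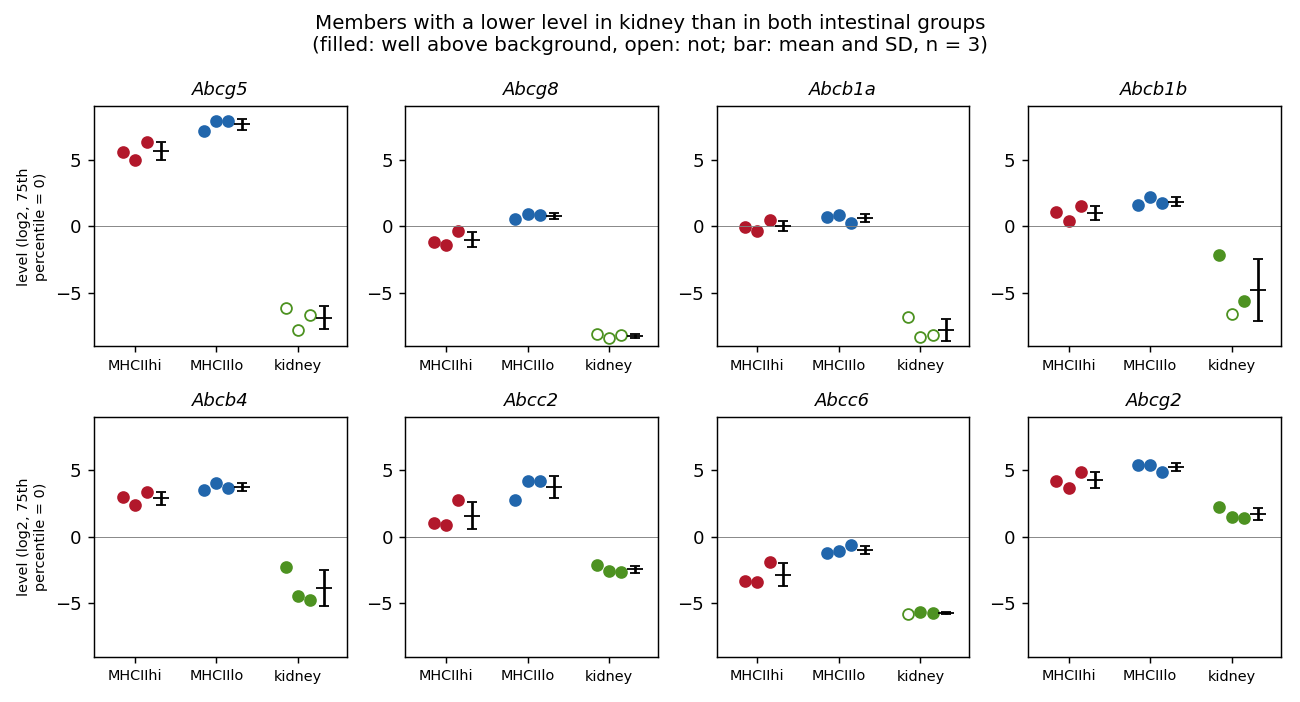
Levels (log2, 75th percentile = 0) of 8 members that were called lower in kidney than in both intestinal groups, with a point per array and the mean with SD (n = 3) beside each group. Open points are not well above background; the kidney points of every gene lie below all 6 intestinal points.

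Of the 10 transporters of drugs and conjugates tested, 3 were higher and 6 lower in kidney than in MHCIIhi, and 3 higher and 7 lower than in MHCIIlo. The shares over all genes tested were 26.1% higher and 22.6% lower against MHCIIhi, and 30.5% and 27.4% against MHCIIlo. The P-glycoprotein genes Abcb1a and Abcb1b, the breast cancer resistance protein gene Abcg2, and Abcc2, Abcc3 and Abcc6 were the lower ones in both comparisons, and Abcc1, Abcc4 and Abcc5 were the higher ones. Abcc10 was lower against MHCIIlo alone.

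Abcb1a encodes a drug efflux pump of the apical membrane, and its probe lies at chr5:8753985-8754044 on mm8. It read -0.016, -0.36 and 0.45 for MHCIIhi, 0.71, 0.87 and 0.29 for MHCIIlo and -6.81, -8.32 and -8.11 for kidney. No kidney array was well above background and the intestinal groups overlapped. Abcb1a was at least 64.2-fold lower in kidney than in MHCIIhi (adjusted p = 5.52e-07) and at least 97.3-fold lower than in MHCIIlo (adjusted p = 3.22e-07). The array holds 1 probe for it. In log2 the bounds are 6.00 and 6.60. Under the alternatives run, the smallest fitted differences were -3.59 and -3.98, short of the bounds.

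Abcb1b, the second P-glycoprotein gene of the mouse, has its probe at chr5:8871931-8871990 on mm8. It read 1.06, 0.44 and 1.52 for MHCIIhi, 1.58, 2.21 and 1.72 for MHCIIlo and -2.17, -6.57 and -5.59 for kidney, where kidney 2 was not well above background. The kidney arrays spread over more than 4 log2 units (SD 2.31) but stayed below all intestinal arrays. A second probe was well above background on all 3 kidney arrays, at -3.28, -4.60 and -4.44, and gave differences of -4.50 and -5.48. By the first probe kidney was lower by 5.78 ± 0.94 than MHCIIhi (adjusted p = 6.20e-04) and lower by 6.62 ± 0.94 than MHCIIlo (adjusted p = 2.17e-04). The differences were -7.08 and -7.92 without kidney 1, and -4.89 and -5.72 without kidney 2. Kidney 1 was also the highest kidney array for Abcb4, Abcb1a, Abcc3 and Abcg2. Among the kidney tubule genes it stood highest for Lrp2 (4.93, 2.22 and 2.33) and Cubn (2.58, -0.67 and -0.88). It did not for Umod (8.87, 8.95 and 8.95) or Calb1 (6.41, 6.74 and 7.19). The kidney levels of these members are those of this sort's mix of cells, whose part in the result was not tested.

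Abcg2, an apical efflux pump for urate and many drugs, read 4.20, 3.65 and 4.86 for MHCIIhi, 5.41, 5.37 and 4.85 for MHCIIlo and 2.21, 1.49 and 1.39 for kidney. It was lower in kidney by 2.54 ± 0.35 than in MHCIIhi (adjusted p = 2.07e-04) and lower by 3.51 ± 0.35 than in MHCIIlo (adjusted p = 2.19e-05), and its other probe differed in the same direction. The intestinal groups overlapped at 1 array each.

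Abcc2, the apical exporter of glutathione and glucuronide conjugates, read 1.06, 0.90 and 2.73 for MHCIIhi, 2.78, 4.21 and 4.20 for MHCIIlo and -2.13, -2.54 and -2.64 for kidney. Kidney was the lowest group, lower by 4.00 ± 0.54 than MHCIIhi (adjusted p = 1.88e-04) and lower by 6.16 ± 0.54 than MHCIIlo (adjusted p = 1.04e-05). The intestinal groups did not overlap, although MHCIIhi 3 and MHCIIlo 1 lay within 0.1 of each other.

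Abcc3, a basolateral exporter of bile salts and glucuronides, read 2.53, 1.91 and 2.29 for MHCIIhi, 3.26, 2.85 and 3.47 for MHCIIlo and 1.42, -0.42 and -0.75 for kidney. It was lower in kidney by 2.16 ± 0.51 (adjusted p = 4.95e-03) than in MHCIIhi and lower by 3.11 ± 0.51 (adjusted p = 4.96e-04) than in MHCIIlo, and the differences were -2.83 and -3.78 without kidney 1. Its other probe differed by more, -3.50 and -4.32.

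Abcc6, an ATP exporter whose loss causes ectopic calcification, read -3.29, -3.42 and -1.87 for MHCIIhi, -1.21, -1.06 and -0.64 for MHCIIlo and -5.79, -5.66 and -5.69 for kidney. The 3 groups did not overlap, and kidney was lower by 2.85 ± 0.38 than MHCIIhi (adjusted p = 1.79e-04) and lower by 4.75 ± 0.38 than MHCIIlo (adjusted p = 6.15e-06). Its 1 probe was well above background on 2 of 3 kidney arrays. The kidney levels lay near the lowest that counted as well above background there, -6.11 to -5.80.

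The members of the same subfamily that stood high in kidney were Abcc1, Abcc4 and Abcc5. Abcc1, a basolateral exporter of glutathione conjugates and leukotrienes with its probe at chr16:14388036-14388095 on mm8, read -0.52, -0.56 and -1.09 for MHCIIhi, -2.84, -4.49 and -3.60 for MHCIIlo and 2.06, 1.74 and 1.96 for kidney. By this probe 1 of 3 MHCIIlo arrays was well above background. Another probe was so on all 9 arrays, with smaller kidney differences of 1.41 and 3.56. The groups did not overlap, and kidney was higher by 2.65 ± 0.38 than MHCIIhi (adjusted p = 2.68e-04) and by 5.57 ± 0.38 than MHCIIlo (adjusted p = 2.22e-06).

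Abcc4, which exports cyclic nucleotides, urate and prostaglandins, has its probe at chr14:117366592-117366651 on mm8. It read -1.82, -1.70 and -2.45 for MHCIIhi, -3.64, -3.50 and -3.29 for MHCIIlo and 1.496, 1.80 and 1.72 for kidney. Here too the groups stood apart, in the same order as for Abcc1. Kidney was higher by 3.67 ± 0.23 than MHCIIhi (adjusted p = 1.69e-06) and by 5.15 ± 0.23 than MHCIIlo (adjusted p = 2.06e-07).

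Abcc5, another exporter of cyclic nucleotides, read -0.79, -1.29 and -0.33 for MHCIIhi, -0.71, 0.68 and 0.52 for MHCIIlo and 1.72, 1.52 and 1.68 for kidney. It was higher in kidney by 2.44 ± 0.38 (adjusted p = 4.49e-04) and 1.48 ± 0.38 (adjusted p = 6.43e-03), while the intestinal groups overlapped. Abcc10 read -4.06, -4.01 and -2.81 for MHCIIhi, -2.51, -2.39 and -1.24 for MHCIIlo and -4.21, -3.85 and -4.09 for kidney, and was lower in kidney than in MHCIIlo by 2.01 ± 0.42 (adjusted p = 2.14e-03). Abcc12 was not well above background on any array.

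**Figure D4:**
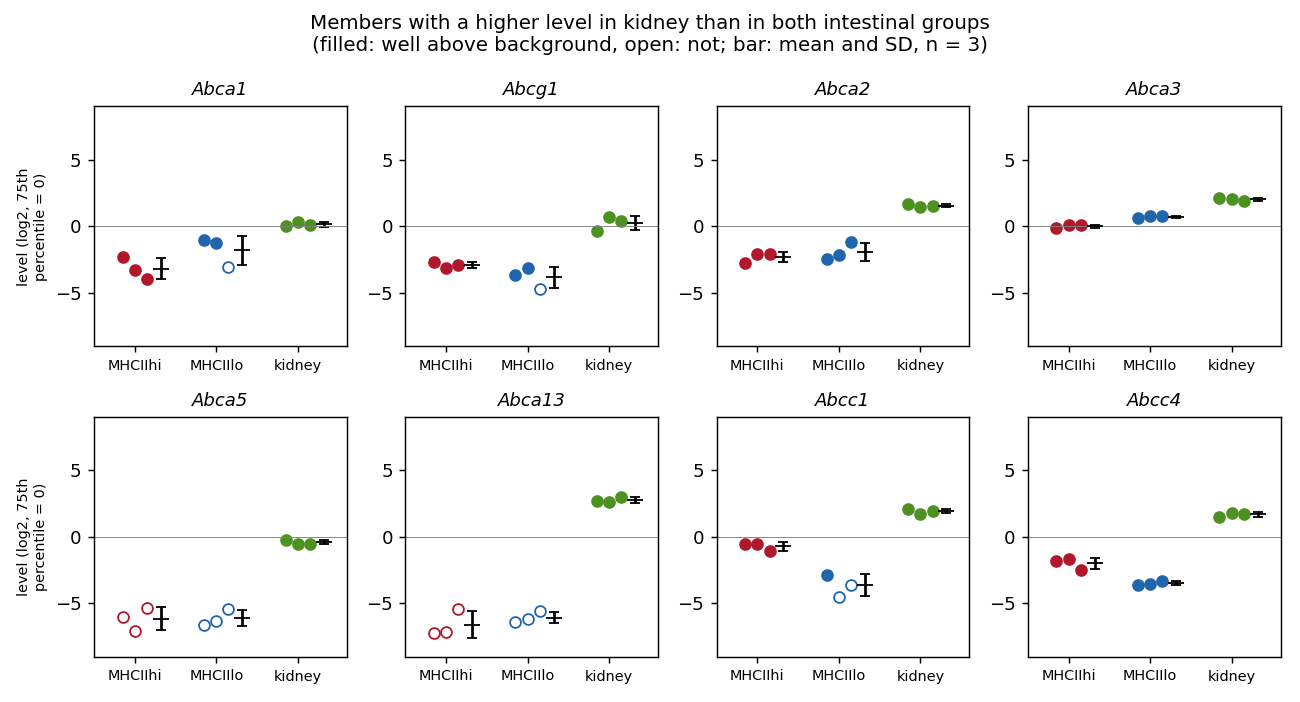
Levels (log2, 75th percentile = 0) of 8 members that were called higher in kidney than in both intestinal groups, with a point per array and the mean with SD (n = 3) beside each group. Open points are not well above background; the kidney points of every gene lie above all 6 intestinal points.

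The A subfamily held the largest differences in favour of kidney. Of its 16 members 10 were tested, and 7 were higher and 2 lower in kidney than in MHCIIhi, against 5 and 3 in the comparison with MHCIIlo. Over all genes tested 26.1% were higher and 22.6% lower against MHCIIhi, and 30.5% and 27.4% against MHCIIlo. The 7 include Abca17, which had no fold by the rule of the bounds and reversed with normexp (-0.66). Abca13, the longest protein of the family, was read at chr11:9583640-9583699 on mm8. It read -7.25, -7.13 and -5.42 for MHCIIhi, -6.42, -6.17 and -5.58 for MHCIIlo and 2.66, 2.597 and 2.99 for kidney. No intestinal array was well above background, and by this probe the gene was at least 219-fold higher in kidney than in MHCIIhi (adjusted p = 4.44e-07) and at least 102-fold higher than in MHCIIlo (adjusted p = 5.36e-07). Its other 2 probes were also well above background on the kidney arrays alone, with differences between 2.59 and 7.87. The smallest, 3.61 against MHCIIhi and 2.59 against MHCIIlo, were short of the bounds, which are 7.77 and 6.67 in log2.

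Abca5, a lysosomal member, read -6.01, -7.04 and -5.35 for MHCIIhi, -6.58, -6.28 and -5.40 for MHCIIlo and -0.25, -0.51 and -0.52 for kidney. Like Abca13 it was well above background in kidney alone, by this probe at least 24.3-fold higher than in MHCIIhi (adjusted p = 5.65e-06) and at least 11.3-fold higher than in MHCIIlo (adjusted p = 4.77e-06). Of its 4 other probes 3 were measured and all 3 differed in the same direction. Their smallest differences were 2.79 and 1.77, short of the bounds, which are 4.60 and 3.50 in log2.

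Abca2, an endosomal and lysosomal member, read -2.76, -2.11 and -2.09 for MHCIIhi, -2.46, -2.14 and -1.15 for MHCIIlo and 1.67, 1.44 and 1.51 for kidney. All arrays were well above background, and kidney was higher by 3.86 ± 0.34 (adjusted p = 1.27e-05) and 3.46 ± 0.34 (adjusted p = 2.07e-05). Abca3, which packs phospholipid into the lamellar bodies of lung, averaged 0.015 ± 0.12 for MHCIIhi, 0.70 ± 0.094 for MHCIIlo and 2.03 ± 0.11 for kidney (SD, n = 3). It was higher in kidney by 2.01 ± 0.15 (adjusted p = 5.78e-06) and 1.32 ± 0.15 (adjusted p = 5.99e-05), although a dim probe of it pointed the other way against MHCIIlo, at -0.65, and the mean of its probes was not called there (0.28).

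Abca4, known as the retinoid transporter of photoreceptors, read -7.59, -7.24 and -6.72 for MHCIIhi, -2.22, -6.23 and -4.09 for MHCIIlo and -2.82, -2.36 and -1.93 for kidney. It was well above background on the kidney arrays and on MHCIIlo 1 alone. It was at least 6.29-fold higher in kidney than in MHCIIhi (adjusted p = 8.87e-04) and was not called against MHCIIlo (1.81 ± 0.83, adjusted p = 0.0772). The call against MHCIIhi was lost with normexp (0.65). Abca17 was well above background in kidney alone, at -5.51 ± 0.39 (SD, n = 3), and Abca6 and Abcg3 on 1 kidney array each.

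The A members that stood lower in kidney were Abca7, Abca8a and Abca8b. Abca7, which moves phospholipid and acts in phagocytosis, read 3.97, 3.46 and 4.38 for MHCIIhi, 5.22, 5.65 and 6.08 for MHCIIlo and 2.64, 3.01 and 2.80 for kidney. The 3 groups did not overlap, and kidney was lower by 1.12 ± 0.29 than MHCIIhi (adjusted p = 8.18e-03) and lower by 2.83 ± 0.29 than MHCIIlo (adjusted p = 2.73e-05). The first of these was short of a call without MHCIIhi 3 (-0.90) and under quantile, median and normexp processing (-0.96 to -0.83). Abca8a averaged -2.80 ± 0.70 for MHCIIhi, -2.26 ± 1.27 for MHCIIlo and -4.55 ± 0.54 for kidney. It was lower in kidney by 1.74 ± 0.62 than in MHCIIhi (adjusted p = 0.0345), a call lost without MHCIIhi 1, MHCIIhi 3, kidney 2 or kidney 3 (adjusted p from 0.0847 to 0.103). Against MHCIIlo the difference was -2.28 ± 0.62 (adjusted p = 8.84e-03), and -3.02 without MHCIIlo 3. Its neighbour Abca8b was lower in kidney than in MHCIIlo, by 1.91 ± 0.51 (adjusted p = 8.01e-03), and not called against MHCIIhi (0.47 ± 0.51).

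Of the other members of this group, Abcb9, a peptide transporter of lysosomes, averaged 1.75 ± 0.48 for MHCIIhi, 3.47 ± 0.52 for MHCIIlo and 2.58 ± 0.10 for kidney (SD, n = 3) and was not called in either kidney comparison. Abca12, the lipid transporter of skin, and Abca14 were well above background on 1 or more single intestinal arrays and on no kidney array. Abca9, Abca15, Abca16 and Abcb5 were not well above background on any array.

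Among the regulators of potassium channels, Abcc8, the sulphonylurea receptor of pancreatic beta cells, was well above background on all 9 arrays and called in no comparison. It averaged -1.01 ± 0.46 for MHCIIhi, -0.64 ± 0.15 for MHCIIlo and -1.63 ± 0.24 for kidney (SD, n = 3). Kidney was lower than MHCIIlo by 0.997 ± 0.25 (adjusted p = 5.72e-03), without overlap but just short of 1 in size. Abcc9, the receptor form of muscle and pericytes, averaged -7.25 ± 0.46 for MHCIIhi, -6.21 ± 0.46 for MHCIIlo and -5.15 ± 0.34 for kidney, and was well above background in kidney alone. None of its 3 calls has a measured level in both groups, and its kidney differences of 2.11 and 1.06 became -0.62 and -1.49 with normexp background correction. Rgs5, a pericyte gene, was likewise well above background in kidney alone, at 0.78 ± 0.29. Of the 8 genes of fibroblasts, pericytes and smooth muscle tested, 5 were higher and 1 lower in kidney than in MHCIIhi. Against MHCIIlo 2 were higher and 1 lower. Pdgfrb was called in neither comparison, and Acta2 was lower in kidney in both. The part of these genes in the Abcc9 values was not tested.

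The members of the mitochondrion, which serve haem and iron-sulphur metabolism, were well above background on all 9 arrays and differed less between kidney and intestine, except Abcb10. That gene, which supports haem synthesis, read 0.31, -0.68 and 0.87 for MHCIIhi, 1.69, 2.26 and 2.64 for MHCIIlo and -2.002, -1.85 and -2.15 for kidney. It was lower in kidney by 2.17 ± 0.39 (adjusted p = 1.08e-03) and 4.20 ± 0.39 (adjusted p = 1.47e-05), but its second probe differed by only -0.23 from MHCIIhi and by -1.38 from MHCIIlo.

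Abcb6 averaged 1.26 ± 0.22 for MHCIIhi, 1.96 ± 0.17 for MHCIIlo and 0.81 ± 0.14 for kidney and was lower in kidney than in MHCIIlo by 1.15 ± 0.18 (adjusted p = 4.11e-04), and by less than 1 under quantile, median and normexp processing (-0.95 to -0.81). Abcb8 averaged 0.75 ± 0.30, 1.04 ± 0.26 and 0.84 ± 0.074 (SD, n = 3) and was not called in any comparison.

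The D subfamily takes fatty acids into peroxisomes, apart from Abcd4, which acts in lysosomal cobalamin export. Abcd3 averaged 4.43 ± 0.21, 5.36 ± 0.00034 and 4.74 ± 0.15 and was called in no comparison. It was lower in MHCIIhi than in MHCIIlo by 0.93 ± 0.17 (adjusted p = 3.49e-03), without overlap but short of 1 in size. Its other probes, well above background on all arrays, differed there by -0.83 and -1.16. Abcd4 averaged 2.92 ± 0.50, 4.44 ± 0.45 and 1.69 ± 0.053 and was lower in kidney by 1.22 ± 0.30 (adjusted p = 5.80e-03; -0.93 and not called without MHCIIhi 3) and 2.75 ± 0.30 (adjusted p = 3.71e-05). Abcd2 was not well above background on any array.

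The soluble members had smaller differences between kidney and intestine than 2 in size. Abce1, which recycles ribosomes, averaged 2.18 ± 0.47 for MHCIIhi, 0.018 ± 0.63 for MHCIIlo and 1.78 ± 0.16 for kidney, and Abcf2 averaged 1.19 ± 0.41, -0.12 ± 0.38 and 1.17 ± 0.12. Kidney was higher than MHCIIlo by 1.77 ± 0.34 for Abce1 (adjusted p = 1.35e-03) and by 1.29 ± 0.26 for Abcf2 (adjusted p = 1.89e-03; 0.99 and not called in the authors' value table), and neither was called against MHCIIhi (-0.40 ± 0.34 and -0.020 ± 0.26). A second Abce1 probe differed from MHCIIlo by 0.25 only. Abcf1 averaged 3.71 ± 0.21, 3.99 ± 0.17 and 2.702 ± 0.13 and was lower in kidney by 1.01 ± 0.18 (adjusted p = 1.04e-03; not called without MHCIIhi 2 or kidney 1, at -0.89 and -0.93) and 1.29 ± 0.18 (adjusted p = 1.87e-04). With quantile normalization and with normexp both fell below 1 in size, to -0.74 and -0.65, and to -0.90 and -0.86. Abcf3 averaged 0.30 ± 0.11, 0.82 ± 0.17 and 0.90 ± 0.14 and was called in no comparison.

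Within the intestine, most members that differed were lower in MHCIIhi than in MHCIIlo. Of the 40 tested, 17 were called, 4 higher and 13 lower in MHCIIhi, which is 42.5%, where 31% of all genes tested were called (15.1% higher and 16% lower). Groups did not overlap for 26 members, beside 56.4% of all genes. The median difference over the members was -0.84 and over all genes -0.23, and every difference below is to be read against that shift of all genes. With slide as a block the comparison rests on MHCIIhi 3 against the 3 MHCIIlo arrays of its slide. A single array shows no spread of its own, so each SE within the slide takes the spread of the other arrays and assumes that MHCIIhi 3 varies like them. All 17 differences then had the same sign and a smaller size, and under that assumption Abcc1, Abcc4 and Abcg8 passed the test, 3 of 17. Over all genes 1394 were then higher and 303 lower, where the fit without the block had 3011 and 3196. The median over the members was -0.47 in that fit, and -0.081 over all genes.

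**Figure D5:**
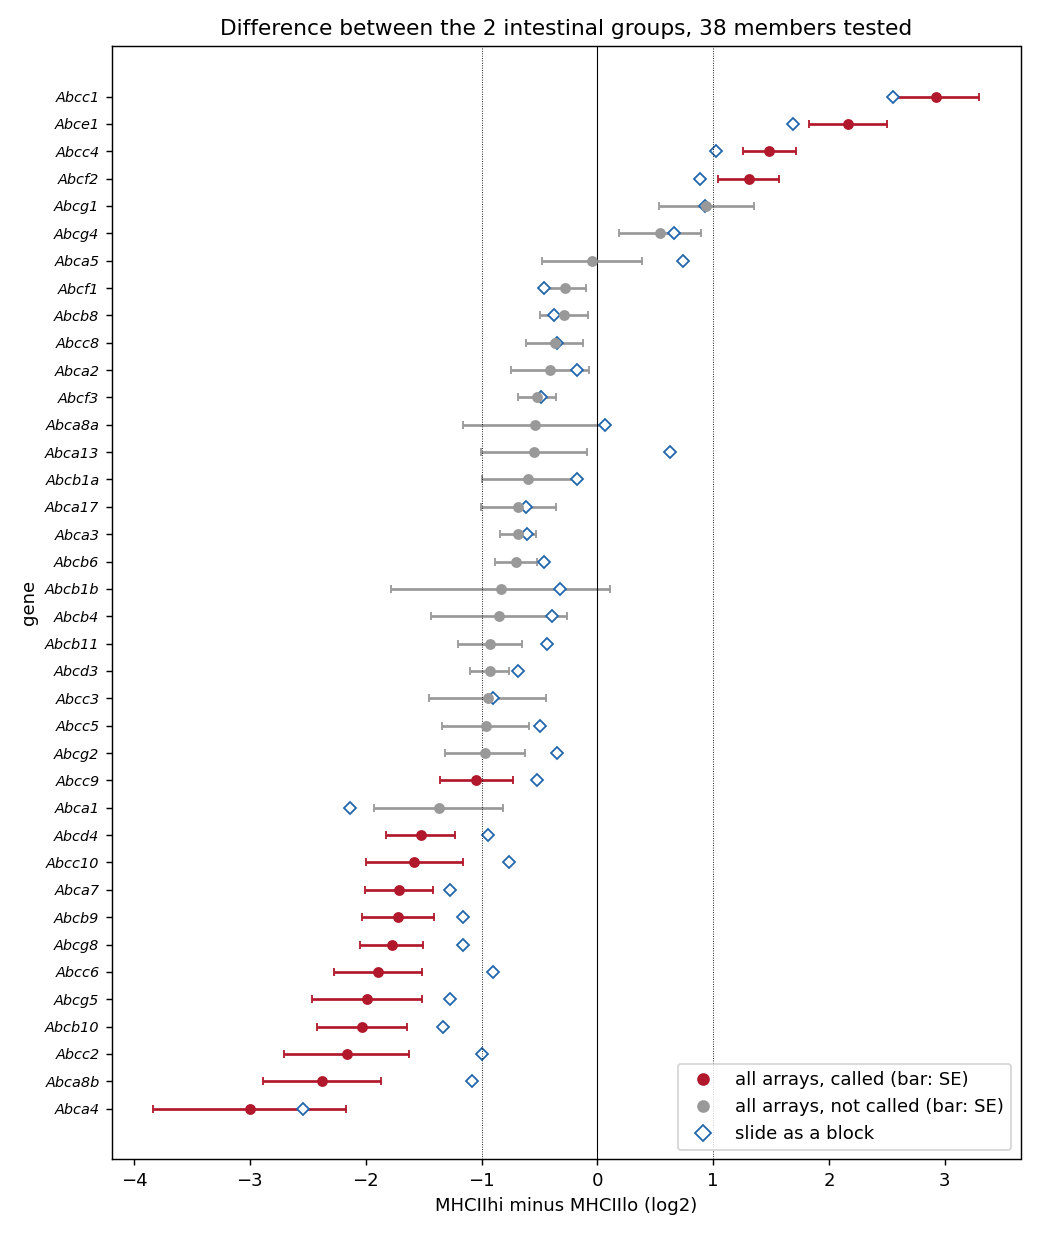
Difference between MHCIIhi and MHCIIlo (log2, horizontal axis) for 38 of the members tested, with bars of 1 SE over all arrays (red where called, grey where not) and open diamonds for the value with slide as a block. Dotted lines mark a difference of 1 in each direction; Abcc1 and Abce1 lie farthest to the right and Abca4 and Abca8b farthest to the left.

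The 4 members higher in MHCIIhi were Abcc1, Abce1, Abcc4 and Abcf2. Abcc1 was higher by 2.92 ± 0.38 (adjusted p = 8.27e-04), and by 2.55 ± 0.53 (adjusted p = 0.0271) within the slide, and its 2 other probes each differed by at least 2.15. With normexp the Abcc1 difference was 0.68, short of a call. Abce1 was higher by 2.16 ± 0.34 (adjusted p = 1.94e-03), with array levels of 2.18, 2.65 and 1.71 against 0.74, -0.28 and -0.41. Within the slide the difference was 1.69 ± 0.44 (adjusted p = 0.0549), short of a call.

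Abcc4 was higher by 1.49 ± 0.23 (adjusted p = 1.78e-03) and by 1.02 ± 0.24 within the slide (adjusted p = 0.0389), but not with normexp (0.060) or the mean of its probes (0.82). Abcf2 was higher by 1.31 ± 0.26 (adjusted p = 5.23e-03), with 1.21, 1.59 and 0.77 against 0.31, -0.43 and -0.23, and by 0.88 ± 0.32 within the slide (adjusted p = 0.124). No array of MHCIIlo reached any array of MHCIIhi for these 4 genes. Genes of crypt and dividing cells moved with them, 9 of 10 higher in MHCIIhi, with a summed level of 5.23 to 6.29 against 1.20 to 2.44 in MHCIIlo. So did 6 of 7 goblet and Paneth cell genes, with a summed level of 9.58 to 10.28 against 8.04 to 9.095. Their part in the result was not tested.

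Of the members lower in MHCIIhi, both sterol pump subunits were lower, Abcg5 by 1.99 ± 0.48 (adjusted p = 0.0102) and Abcg8 by 1.77 ± 0.27 (adjusted p = 1.71e-03). Within the slide the differences were -1.27 ± 0.61 (adjusted p = 0.214) and -1.16 ± 0.25 (adjusted p = 0.0306). Abcc2 was lower by 2.16 ± 0.54 (adjusted p = 0.0118) and Abcc6 by 1.89 ± 0.38 (adjusted p = 5.18e-03), and within the slide they differed by -1 ± 0.54 (adjusted p = 0.266) and -0.91 ± 0.26 (adjusted p = 0.0718). Abcb10 was lower by 2.03 ± 0.39 (adjusted p = 4.22e-03; -1.33 ± 0.45 within the slide, adjusted p = 0.105), and its second probe by 1.15. In Abcc2, Abcc6 and Abcg5, MHCIIhi 3 was the MHCIIhi array nearest to MHCIIlo.

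Abca7 was lower by 1.71 ± 0.29 (adjusted p = 2.65e-03; -1.27 ± 0.36 within the slide) and Abcb9 by 1.72 ± 0.31 (adjusted p = 3.48e-03; -1.16 ± 0.36 within the slide). Abcd4 was lower by 1.53 ± 0.30 (adjusted p = 4.52e-03; -0.95 ± 0.32 within the slide). The groups did not overlap for any of these 3 genes.

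Abcc10 was lower by 1.58 ± 0.42 (adjusted p = 0.0152; -0.76 ± 0.47 within the slide), a call lost without MHCIIhi 1 (adjusted p = 0.0564) or MHCIIhi 2 (adjusted p = 0.0575). Abca8b read -5.31, -6.17 and -3.80 in MHCIIhi, 1 array of which was well above background, and -3.15, -2.44 and -2.56 in MHCIIlo. It was lower in MHCIIhi by 2.38 ± 0.51 (adjusted p = 6.76e-03), by 3.02 without MHCIIhi 3, and by 1.09 ± 0.39 within the slide (adjusted p = 0.118).

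The difference of Abca4 rests on 1 detected array, MHCIIlo 1. Its bound is 1.80-fold, and without that array there is no detected level on either side. The fitted value was -3.00 ± 0.83 (adjusted p = 0.0178), between -4.03 and -2.02 with 1 array left out, and lost its call without MHCIIhi 1, MHCIIhi 2 or MHCIIlo 3 (adjusted p from 0.0514 to 0.0581). The call was also lost with quantile normalization (-2.81, adjusted p = 0.0527) and within the slide (-2.54 ± 1.22, adjusted p = 0.215). Abcc9 was called as well (-1.04 ± 0.32, adjusted p = 0.0247) but was not well above background on any intestinal array.

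Enterocyte genes moved with the members lower in MHCIIhi, 9 of 10 lower, with a summed level of 9.72 to 10.93 in MHCIIhi and 11.44 to 12.02 in MHCIIlo. Of 8 genes of fibroblasts, pericytes and smooth muscle tested, 5 were lower in MHCIIhi, with a summed level of 4.79 to 5.05 against 5.61 to 6.07, and of 9 genes of T and intraepithelial lymphocytes 5 were lower. Of 7 genes of B and plasma cells 3 were lower in MHCIIhi, Jchain by 4.98, Mzb1 by 4.30 and Pou2af1 by 3.11, and the summed level of the 7 lay between 0.13 and 1.12, beside 4.44 to 5.18 for MHCIIlo. Their part in the results was not tested. Of the 26 regulators and partners 6 were lower in MHCIIhi, among them Npc1l1, Soat2, Apoa1 and Nr1h3.

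For the efflux pumps Abcb1a, Abcb1b, Abcb4, Abcc3 and Abcg2 the intestinal groups were not called apart. Abcg2 was lower in MHCIIhi by 0.97 ± 0.35 (adjusted p = 0.0438), short of 1 in size. The difference was -0.60 ± 0.40 for Abcb1a (adjusted p = 0.234), -0.84 ± 0.94 for Abcb1b (adjusted p = 0.478) and -0.85 ± 0.59 for Abcb4 (adjusted p = 0.253). Abcc3 differed by -0.95 ± 0.51 (adjusted p = 0.145). Every one of these means was higher in MHCIIlo, and these p-values do not show that the groups are alike. The intestinal groups did not overlap for Abcb1b, Abcb4 and Abcc3. Each SE takes in the spread of the kidney arrays, where the SD was 2.31 for Abcb1b, 1.36 for Abcb4 and 1.17 for Abcc3. In MHCIIhi and MHCIIlo the SDs were 0.54 and 0.33, 0.50 and 0.27, and 0.31 and 0.32 in that order.

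Read over all 3 comparisons, the members fell into a few patterns. Abca7, Abcb10, Abcc2, Abcc6, Abcd4, Abcg5 and Abcg8 were lower in MHCIIhi than in MHCIIlo and lower still in kidney, a pattern of 7 of the 40 members and of 6.01% of all genes tested. Abca8a, Abcb1a, Abcb1b, Abcb4, Abcc3, Abcf1 and Abcg2 were lower in kidney than in both intestinal groups, which were not called apart, 7 members, beside 9.97% of all genes. Abca1, Abca2, Abca3, Abca5, Abca13, Abcc5 and Abcg1 were higher in kidney with the intestinal groups not called apart, 7 members, beside 15.8% of all genes. Abcc1 and Abcc4 were higher in MHCIIhi than in MHCIIlo and higher still in kidney. Not called in any comparison were 6 members, among them Abcb8, Abcc8, Abcd3, Abcf3 and Abcg4, beside 30.3% of all genes. By its mean, the highest group was MHCIIlo for 23 of the 40 members tested, kidney for 15 and MHCIIhi for 2, and the lowest group was kidney for 19, MHCIIhi for 14 and MHCIIlo for 7. This order was not counted over all genes, whose median difference between MHCIIhi and MHCIIlo was -0.23. It also includes levels not well above background, such as that of Abcb11 in MHCIIlo, so it describes the scaled values only.

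Where a called member had a second probe that was measured, the probes mostly went the same way. This was so for 8 of 8 such probes between MHCIIhi and MHCIIlo, 21 of 21 between kidney and MHCIIhi and 22 of 23 between kidney and MHCIIlo, the exception being the dim Abca3 probe. Of these 8, 19 and 20 also passed a difference of 1. Outside the naming rule, Cftr, the chloride channel of the same superfamily, averaged 1.56 ± 0.29 for MHCIIhi, 0.61 ± 0.37 for MHCIIlo and -4.59 ± 0.024 for kidney. Tap1 and Tap2, the peptide transporters of antigen presentation, averaged 1.01 ± 0.20, 1.26 ± 0.49 and -1.15 ± 0.60, and 0.50 ± 0.31, 1.65 ± 0.086 and 0.26 ± 0.58 (SD, n = 3 each).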

How the data were processed

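Cy3-labelled RNA was scanned, and Feature Extraction by Agilent (10.5.1.1, per the file headers) gave the spot values. The deposited processed signal is an intensity, background-subtracted by the scanner software with surrogates for signals not above background, per the file headers, and not normalized between arrays. The authors' deposited value table equals that intensity over each array's median (largest relative deviation 2.37e-05). Control and outlier spots were left out, spots of a probe averaged, and each gene read by its probe of highest mean signal over the 9 arrays. Of 97 member probes 81 matched a RefSeq symbol, all equal to the file's name. Log2 signals were scaled to the 75th percentile, and genes well above background on all 3 arrays of a group (19994) were fitted in R 4.3.3 by limma 3.58.1 (lmFit, eBayes; package data.table, version 1.17.8), group as factor, then adjusted over all genes. Replicates are separate pools, per the labels. The code was tested on simulated data. Alternatives were other scaling, normexp (offset 50), the value table, filters, probe rules, blocks, thresholds and leaving out arrays. Members are named, except some whose results are not reported here (counts include them), and array values are given for the largest differences (6 per direction and comparison) and by role. The members and lists were chosen with earlier results of these data known. Sequences are from RefSeq GRCm38.p6, probe positions from the array annotation (mm8). Figures used Python 3.11.15, pandas 2.3.3 and matplotlib 3.10.9.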

Additional observations from a re-analysis of the deposited data

How the results depend on the processing

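Counts of called members were within 1.5 times of those reported under every alternative run except 2. Requiring genes to be well above background on all 9 arrays, which leaves fewer members to test, gave 10 called members for MHCIIhi against MHCIIlo, 12 for kidney against MHCIIhi and 17 for kidney against MHCIIlo. Slide as a fixed block gave 3 called members for MHCIIhi against MHCIIlo. Over all genes, MHCIIhi against MHCIIlo had 6207 calls, and 2948 with normexp, 3992 with the filter on all arrays, 1697 with slide as a fixed block, 10011 without a minimum difference, 4124 at an adjusted p below 0.01 and 9405 without both MHCIIhi 3 and MHCIIlo 1, a setting chosen after seeing the data. Kidney against MHCIIhi had 9753 calls and 5426 with the filter on all arrays. Kidney against MHCIIlo had 11593 calls, 17802 without a filter and 6986 with the filter on all arrays.

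Values that reversed were those of Abca17 against MHCIIhi (-0.66 with normexp) and of Abcc9 against MHCIIhi (-0.62 with normexp) and against MHCIIlo (-1.49 with normexp, -0.14 with the mean of probes). These genes were measured in kidney alone, and the cause was not tested. Over the 74 calls of single members, 1535 of 1608 values under alternatives kept direction and call, 69 kept the direction and lost the call, and 4 reversed. Leaving out 1 array gave 14 to 22 called members for MHCIIhi against MHCIIlo, 25 to 26 for kidney against MHCIIhi and 31 to 33 for kidney against MHCIIlo.

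With the replicate number as a block 18, 26 and 31 members were called in the same order. Same-numbered arrays correlated between -0.34 and 0.28 in their deviations from the group means. These values show no pairing by number, but 3 arrays per group are too few to exclude one. The median of all genes moved with the scaling, for kidney against MHCIIlo from -0.58 with normexp to 0.27 with median scaling. Faint signals set the limit in MHCIIlo, where the level needed for detection was highest.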
